A study of Ovis aries with 67 samples.

Results

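The genes ENSOARG00000006382 and ENSOARG00000017349 were the only 2 of 16686 genes tested in subcutaneous adipose tissue (SUB) that passed the threshold in the quasi-likelihood test of edgeR between HIGH-HCHF and LOW-CONV sheep, the diet combinations at the 2 ends of the nutrition design. They were followed here in every library of SUB and of perirenal adipose tissue (PER), as 2 of the 27054 genes counted. Both are given in the counts by their Ensembl identifiers for the sheep genome Oar_v3.1. The reference table used here, of another assembly, matched 0 of the identifiers, so that their names, what they encode, their positions and their sequences are not analysed here, and the labelled tissues were not checked against marker genes.

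RNA was sequenced from adipose tissue of 36 sheep aged 2.5 years, born to crossbred Texel ewes that carried twins. During the last 6 weeks of gestation the ewes were fed at 100% of their energy and protein requirements (NORM), at 50% of both (LOW), or above them, with energy at 150% and protein at 110% (HIGH). From day 3 to month 6 the lambs received either a moderate conventional diet (CONV) or one high in carbohydrate and fat (HCHF), and all of them were then fed a low-fat, hay-based diet until adulthood. The 36 PER libraries came from 17 males and 19 females, and the 31 SUB libraries from 14 males and 17 females of the same sheep. In SUB there were 4 NORM-CONV, 4 NORM-HCHF, 7 LOW-CONV, 5 LOW-HCHF, 5 HIGH-CONV and 6 HIGH-HCHF sheep, and in PER 6 NORM-CONV, 4 NORM-HCHF, 9 LOW-CONV, 6 LOW-HCHF, 5 HIGH-CONV and 6 HIGH-HCHF. The labels do not say which sheep were twins, so the p-values measure the spread between sheep and treat twins as unrelated. Males and females were kept apart after the diets ended, so that sex and its group of animals cannot be told apart.

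Subcutaneous fat lies under the skin, whereas perirenal fat surrounds the kidney and is the main fat depot of the newborn lamb, in which brown-like fat cells give way to white ones after birth. The last weeks of gestation are a time of rapid growth of fetal fat in sheep, and the weeks after birth are a time of filling and recruitment of fat cells.

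The deposited counts in genes ranged from 662475 to 13232721 per SUB library and from 620406 to 10478705 per PER library. Shallow libraries, those under 2000000 counts, numbered 2 in SUB (1 NORM-HCHF male and 1 HIGH-HCHF female) and 3 in PER, where they came from a LOW-CONV, a LOW-HCHF and a NORM-HCHF female. In these, 93.1% to 97.6% of the reads counted either in the exons of a gene or in none were outside exons. Counting was done in exons, so that reads in introns are part of this share. Levels are given as counts per 1000000 counts in genes (cpm) after TMM scaling over the 67 libraries, or as log2 cpm with a prior count of 2.

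In SUB, the level of ENSOARG00000006382 was highest in HIGH-HCHF and lowest in LOW-CONV sheep, with the other 4 diet combinations in between. The HIGH-HCHF sheep had a lowest value of 11.8, a median of 28.1 and a highest value of 63.5 cpm (n = 6), and the LOW-CONV sheep 3.60, 7.75 and 15.5 cpm (n = 7). Both groups overlapped, since the lowest HIGH-HCHF value, of a male, lay below the highest LOW-CONV value, of a female. The other 5 HIGH-HCHF sheep were above every LOW-CONV sheep.

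Among the combinations in between, the HIGH-CONV sheep had 6.96, 7.42, 11.7, 23.5 and 24.8 cpm of ENSOARG00000006382, and the LOW-HCHF sheep 5.82, 7.27, 13.0, 18.2 and 30.6 cpm. The NORM-CONV sheep had 7.41, 8.49, 9.70 and 18.1 cpm, and the NORM-HCHF sheep 10.5, 15.5, 15.8 and 21.5 cpm. These 4 combinations overlapped with each other over most of their ranges. The mean log2 cpm was 4.76 ± 0.85 in HIGH-HCHF (SD, n = 6), 3.96 ± 0.41 in NORM-HCHF (n = 4), 3.72 ± 0.86 in HIGH-CONV (n = 5), 3.68 ± 0.95 in LOW-HCHF (n = 5), 3.40 ± 0.56 in NORM-CONV (n = 4) and 2.81 ± 0.74 in LOW-CONV (n = 7). In this order, the step of 0.79 from NORM-HCHF to HIGH-HCHF was close to the spread within groups (pooled SD 0.77), and the other steps were smaller than that spread.

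ENSOARG00000017349 was counted at a much lower depth, with 2 to 56 counts per SUB library, and its levels therefore carried a larger counting error. The HIGH-HCHF sheep had a lowest value of 1.77, a median of 4.24 and a highest value of 12.8 cpm, whereas the LOW-CONV sheep had 0.305, 0.673 and 1.31 cpm. The ranges of HIGH-HCHF and LOW-CONV did not overlap. Over all genes tested in SUB, every HIGH-HCHF library was above every LOW-CONV library for 0.228%, a share that is given as background because this contrast chose the gene. The lowest value, in a LOW-CONV female, rested on 3 counts (95% exact Poisson interval 0.0629 to 0.892 cpm, which covers counting error only), and the highest, in the shallow HIGH-HCHF library, on 14 counts (7.02 to 21.5 cpm).

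The other combinations lay between them for ENSOARG00000017349 too, except for NORM-HCHF, which spanned most of the range. The 4 NORM-HCHF sheep had 0.39, 1.59, 4.13 and 9.44 cpm, the last in the shallow library, and the NORM-CONV sheep had 0.930, 1.11, 1.54 and 1.68 cpm. The HIGH-CONV sheep had 1.13, 1.92, 2.14, 2.63 and 4.13 cpm, and the LOW-HCHF sheep 1.11, 1.18, 1.97, 2.44 and 3.49 cpm. Both groups overlapped with NORM-CONV, whereas all HIGH-HCHF sheep were above all NORM-CONV sheep (0.132% of the genes tested in SUB). The HIGH-HCHF values are those that chose the gene, so that this share too is background only.

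The mean log2 cpm of ENSOARG00000017349 was 2.22 ± 1.08 in HIGH-HCHF (SD, n = 6), 1.43 ± 1.67 in NORM-HCHF (n = 4), 1.31 ± 0.60 in HIGH-CONV (n = 5), 1.10 ± 0.61 in LOW-HCHF (n = 5), 0.64 ± 0.33 in NORM-CONV (n = 4) and -0.04 ± 0.64 in LOW-CONV (n = 7). The order of the 6 combinations was that of ENSOARG00000006382, and each step was smaller than the spread within groups (pooled SD 0.89). Both genes were chosen on the same contrast of these libraries, which fixed both ends of the order.

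**Figure D1:**
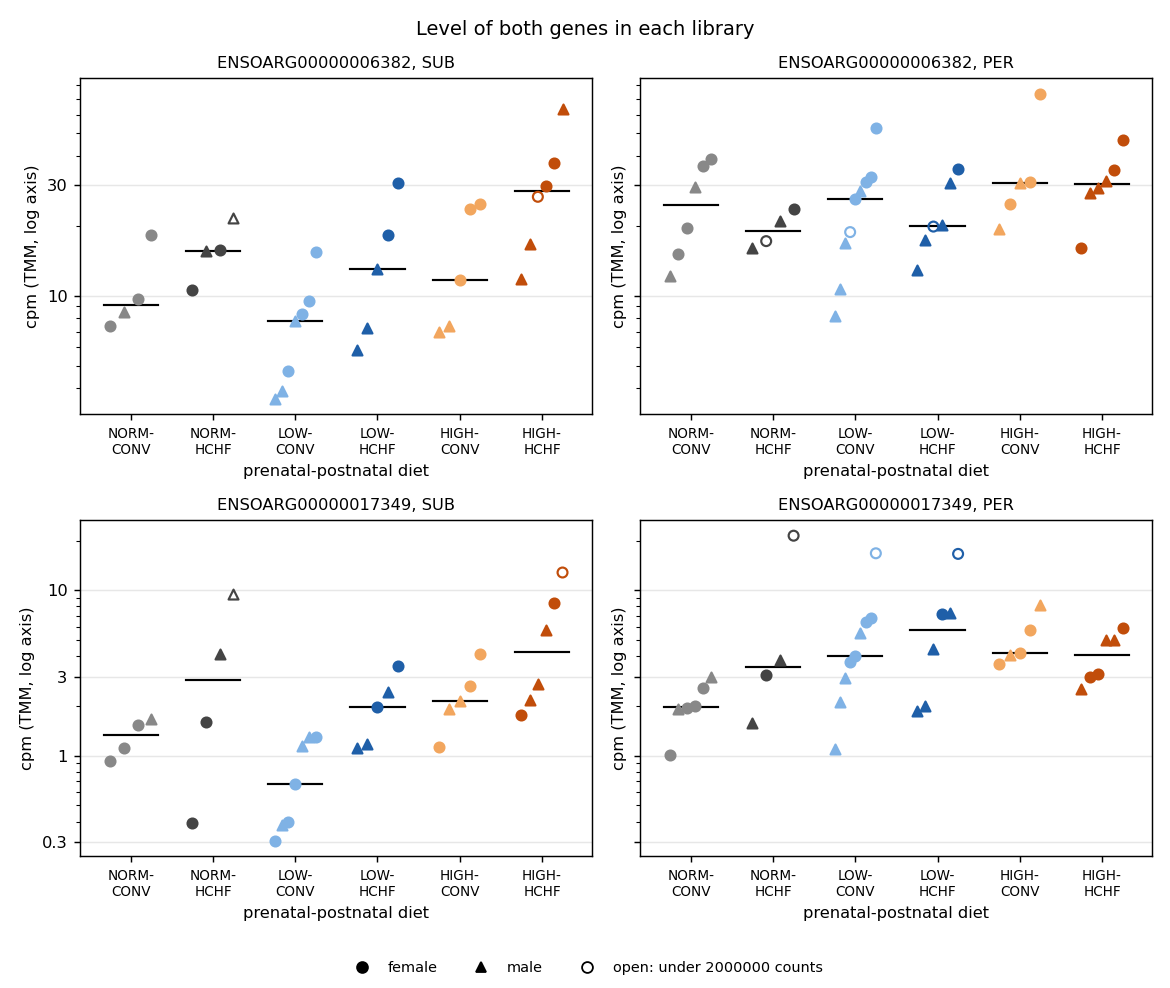
Level of ENSOARG00000006382 (top) and ENSOARG00000017349 (bottom) in each SUB (left) and PER (right) library, in cpm on a log axis, by diet combination; points are sheep, and black lines are group medians. In SUB the HIGH-HCHF medians of 28.1 and 4.24 cpm stand above the LOW-CONV medians of 7.75 and 0.673 cpm, and in PER the groups overlap, apart from NORM-CONV and HIGH-CONV for ENSOARG00000017349.

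In the edgeR fit, the contrast that chose the genes gave a log2 fold change between HIGH-HCHF and LOW-CONV of 2.23 ± 0.36 (SE) for ENSOARG00000006382 and 2.57 ± 0.47 for ENSOARG00000017349. Their adjusted p-values of 0.0252 and 0.0384 were the 2 under the threshold of 0.05, which is 0.012% of the genes tested. The gene just outside, ENSOARG00000019388, had a log2 fold change of 2.38 and an adjusted p of 0.0622 in edgeR, so that both members stood close to the limit of the list. These values describe the choice and are no separate evidence for it. Leaving out single sheep moved the number of genes called between 0 and 7, and ENSOARG00000006382 passed the threshold in 21 and ENSOARG00000017349 in 14 of the 31 fits. The log2 fold changes stayed between 1.63 and 2.49 for ENSOARG00000006382 and between 2.33 and 2.87 for ENSOARG00000017349.

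The share of reads outside exons moved with this contrast. It was 54.4% to 97.4% in the HIGH-HCHF libraries of SUB (median 67.2%) and 50.8% to 64.4% in the LOW-CONV libraries (median 58.1%). With that share as a covariate in edgeR, 0 of the 16686 genes passed the threshold, and 1072 had an unadjusted p-value under 0.05. Without the covariate, 3161 genes (18.9%) had an unadjusted p-value under 0.05 in edgeR. The log2 fold changes were then 2.02 for ENSOARG00000006382 (adjusted p = 0.0739) and 2.11 for ENSOARG00000017349 (adjusted p = 0.159). DESeq2, without the covariate, called 948 of the 16686 genes.

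The spread between the 6 group means of log2 cpm in SUB, with each group weighted equally, was divided into a prenatal part, a postnatal part and the rest that the labels leave when added. For ENSOARG00000006382, 47.9% belonged to the prenatal label, 49.4% to the postnatal label and 2.78% to their combination. For ENSOARG00000017349 it was 52.7%, 46.2% and 1.11%. In libraries with at least 2000000 counts, the parts for ENSOARG00000017349 were 61.0%, 28.2% and 10.8%. A contrast of HIGH-HCHF with LOW-CONV favours genes with a step in both labels, so that the near-even split describes the choice and does not show which label the genes follow.

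The step from CONV to HCHF in SUB is given for each prenatal group. For ENSOARG00000006382 the mean log2 cpm on HCHF was higher by 0.57 in NORM, 0.87 in LOW and 1.04 in HIGH sheep, and for ENSOARG00000017349 by 0.79, 1.15 and 0.91. Only the NORM step used neither group of the contrast that chose the genes. For ENSOARG00000017349 it was 0.17 in libraries with at least 2000000 counts and ranged from 0.17 (without NORM-HCHF replicate 3, the shallow library) to 1.47 (without NORM-HCHF replicate 1), and its HIGH step was 0.61 in the deeper libraries. The step from LOW to HIGH was 0.90 on the CONV and 1.08 on the HCHF diet for ENSOARG00000006382, and 1.35 and 1.12 for ENSOARG00000017349. The NORM sheep lay between LOW and HIGH sheep for both genes, with mean log2 cpm of 3.25, 3.68 and 4.24 in LOW, NORM and HIGH sheep for ENSOARG00000006382 and of 0.53, 1.03 and 1.76 for ENSOARG00000017349.

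Averaged over the other factors in edgeR, HCHF vs CONV gave a log2 fold change of 1.0 ± 0.25 (SE) for ENSOARG00000006382 and 1.0 ± 0.33 for ENSOARG00000017349 in SUB. LOW vs HIGH gave -1.03 ± 0.27 and -1.36 ± 0.35, LOW vs NORM -0.33 ± 0.32 and -0.67 ± 0.43, and HIGH vs NORM 0.71 ± 0.32 and 0.69 ± 0.40. For ENSOARG00000017349, leaving out NORM-CONV replicate 3, the only male of its group, moved HIGH vs NORM to 0.0346, LOW vs NORM to -1.31 and HCHF vs CONV to 0.51. For ENSOARG00000006382, leaving out HIGH-HCHF replicate 4 moved HIGH vs NORM to 0.35, and leaving out NORM-CONV replicate 3 moved LOW vs NORM to -0.51. These contrasts share libraries with the one that chose the genes and are given without a test.

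The 18 SUB sheep that were in neither arm of that contrast were compared with each other. They still entered the fit that chose the genes, through its shared terms and dispersion. The tests among them are therefore not fully separate from the choice. Between NORM-CONV, NORM-HCHF, LOW-HCHF and HIGH-CONV, 0 of 12 differences in mean log2 cpm (6 pairs for each gene) passed the threshold in two-sided exact permutation tests, adjusted over the 12 tests, and 0 had an unadjusted p-value under 0.05. The smallest p-value was that of ENSOARG00000017349 between HIGH-CONV and NORM-CONV, with a difference of 0.67 (exact permutation test, p = 0.0794, adjusted p = 0.825, n = 5 and 4). For ENSOARG00000006382, NORM-HCHF and NORM-CONV differed by 0.57 (exact permutation test, p = 0.171, adjusted p = 0.825, n = 4 and 4), where 0.0286 is the smallest p that 4 sheep against 4 can give. HIGH-CONV and LOW-HCHF, which carry the higher level of one label each, differed by 0.04 for ENSOARG00000006382 (exact permutation test, p = 0.968, adjusted p = 0.968, n = 5 and 5) and by 0.21 for ENSOARG00000017349 (p = 0.556, adjusted p = 0.857). With 4 or 5 sheep per group and SDs of up to 1.67, differences of this size were not detectable.

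In PER, whose libraries did not enter the choice, neither gene differed between HIGH-HCHF and LOW-CONV beyond the spread between sheep. ENSOARG00000006382 had a lowest value of 16.1, a median of 30.1 and a highest value of 46.9 cpm in HIGH-HCHF (n = 6), and 8.17, 26.1 and 52.4 cpm in LOW-CONV (n = 9), so that the HIGH-HCHF range lay within that of LOW-CONV. The log2 fold change was 0.44 ± 0.29 (SE; edgeR, adjusted p = 0.773). For ENSOARG00000017349 the values were 2.54, 4.05 and 5.94 cpm in HIGH-HCHF and 1.10, 3.99 and 16.8 cpm in LOW-CONV, the last in the shallow library. Its log2 fold change was -0.04 ± 0.37 (edgeR, adjusted p = 0.985), with a sign that other settings turned. No gene of the 20880 tested in PER was called in this contrast by edgeR (0.0%, with 1219 genes at an unadjusted p-value under 0.05) or by DESeq2, and limma-voom called 1.

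The other PER groups overlapped too. ENSOARG00000006382 ranged from 12.2 to 38.5 cpm in NORM-CONV (median 24.4, n = 6) and from 12.9 to 35.1 cpm in LOW-HCHF (median 20.0, n = 6). The NORM-HCHF sheep had 16.0, 17.1, 20.9 and 23.6 cpm, and the HIGH-CONV sheep 19.2, 24.8, 30.4, 30.9 and 73.7 cpm, the highest value of this gene in either tissue. Of the spread between the 6 group means in PER, 90.2% belonged to the prenatal label, 6.33% to the postnatal label and 3.46% to their combination. The mean log2 cpm was 4.41 in NORM, 4.45 in LOW and 4.95 in HIGH sheep. Such shares divide only the spread between group means, and the prenatal label did not pass the threshold in PER for either gene, as given below. Without 1 sheep, the log2 fold change of LOW vs HIGH in edgeR ranged from -0.54 to -0.28, the latter without HIGH-CONV replicate 2.

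ENSOARG00000017349 ranged in PER from 1.0 to 2.99 cpm in NORM-CONV (median 1.96, n = 6) and from 1.86 to 16.6 cpm in LOW-HCHF (median 5.79, n = 6). The HIGH-CONV sheep had 3.60, 4.06, 4.15, 5.76 and 8.16 cpm, all above the NORM-CONV sheep, as for 0.0958% of the genes tested in PER. The NORM-HCHF sheep had 1.58, 3.06, 3.78 and 21.4 cpm. The 3 highest values of this gene in PER, 16.6, 16.8 and 21.4 cpm, were those of the 3 shallow libraries. Its spread between group means was 36.5% prenatal, 15.6% postnatal and 47.9% of the combination over all libraries, but 86.3%, 0.584% and 13.1% in libraries with at least 2000000 counts.

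Averaged over the other factors, no diet contrast of the 2 genes passed the threshold in PER. For ENSOARG00000006382, HIGH vs NORM gave a log2 fold change of 0.58 ± 0.26 (SE; edgeR, adjusted p = 0.967), LOW vs HIGH -0.46 ± 0.23 (adjusted p = 0.670), LOW vs NORM 0.12 ± 0.25 (adjusted p = 1.0) and HCHF vs CONV -0.11 ± 0.20 (adjusted p = 0.889). For ENSOARG00000017349, LOW vs NORM gave 0.78 ± 0.32 (edgeR, adjusted p = 1.0), HIGH vs NORM 0.63 ± 0.32 (adjusted p = 0.967), HCHF vs CONV 0.45 ± 0.25 (adjusted p = 0.638) and LOW vs HIGH 0.15 ± 0.28 (adjusted p = 0.832). The prenatal label as a whole had an adjusted p of 0.902 for both genes (edgeR, 2 coefficients). In edgeR all of these contrasts called 0 genes in PER (0.0%), with 623 to 1819 genes at an unadjusted p-value under 0.05, whereas DESeq2 called 49 genes for HCHF vs CONV, 5 for LOW vs HIGH and 2 each for the other pairs, without either of these genes among them. The difference between the diet effects in PER and SUB was not tested because the SUB contrasts chose the genes.

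**Figure D2:**
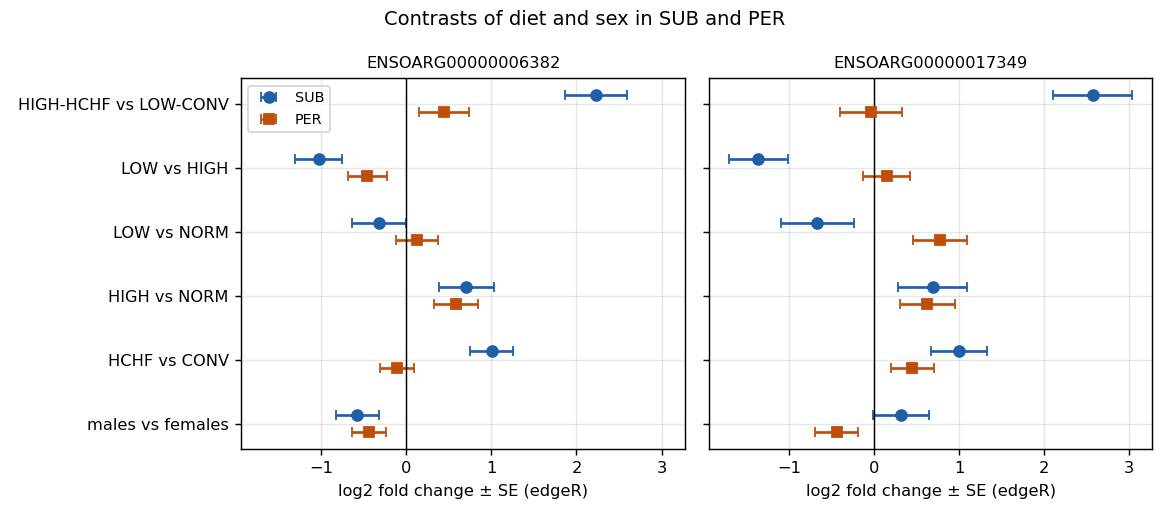
Log2 fold changes with standard errors from edgeR for ENSOARG00000006382 (left) and ENSOARG00000017349 (right) in SUB (circles) and PER (squares), for 5 diet contrasts and for sex. For HIGH-HCHF vs LOW-CONV, the contrast that chose the genes, the SUB values are 2.23 and 2.57, and the PER values 0.44 and -0.04.

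ENSOARG00000006382 had a lower median in males than in females in both tissues, and neither difference passed the threshold. In SUB, females had 4.74 to 37.3 cpm (median 15.8, n = 17) and males 3.60 to 63.5 cpm (median 8.12, n = 14), with the highest value of all in a HIGH-HCHF male. The log2 fold change was -0.58 ± 0.25 (SE; edgeR, adjusted p = 0.205), where 3.95% of the genes were called. Without that male (HIGH-HCHF replicate 4) it was -0.78 and passed (edgeR, adjusted p = 0.0273), whereas it did not pass in the other 30 fits that left out 1 sheep. The SUB fit was also the one that chose the genes, so that the tests of sex in SUB, for either gene, are not fully separate from the choice. In PER, females had 15.1 to 73.7 cpm (median 30.9, n = 19) and males 8.17 to 31.1 cpm (median 20.1, n = 17). The ranges overlapped, and the highest male value was close to the female median.

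The difference of ENSOARG00000006382 between the sexes in PER was -0.44 ± 0.20 (SE; edgeR, adjusted p = 0.0717), in a contrast that called 43.4% of the genes tested. It passed with DESeq2 (adjusted p = 0.00858) and in 5 other settings, and in 9 of the 36 fits that left out 1 sheep, with -0.58 and an adjusted p of 0.029 without LOW-HCHF replicate 5, a shallow library, in edgeR. ENSOARG00000017349 had medians of 1.54 cpm in females and 2.03 cpm in males in SUB, with a log2 fold change of 0.31 ± 0.33 (edgeR, adjusted p = 0.583). In PER the medians were 3.99 and 2.99 cpm, with -0.44 ± 0.25 (edgeR, adjusted p = 0.151). This value was -0.81 and passed with DESeq2 (adjusted p = 0.0212), and turned to 0.14 with the share of reads outside exons as a covariate. That share had a median of 74.7% in female and 68.2% in male PER libraries, and 3 of the females but none of the males had shallow libraries.

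The difference between the sexes did not change detectably between the tissues, in a test that shares its SUB libraries with the choice of the genes. The sex effect in PER minus that in SUB was 0.11 ± 0.32 for ENSOARG00000006382 (SE; edgeR, adjusted p = 0.939) and -0.54 ± 0.46 for ENSOARG00000017349 (adjusted p = 0.791), where 0.0987% of the 23294 genes tested were called.

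Both genes were higher in PER than in SUB. ENSOARG00000006382 had 3.60 to 63.5 cpm in SUB (median 11.8, n = 31) and 8.17 to 73.7 cpm in PER (median 25.4, n = 36), and ENSOARG00000017349 0.305 to 12.8 cpm in SUB (median 1.68) and 1.0 to 21.4 cpm in PER (median 3.73). The tissues overlapped over most of their ranges. Averaged over the diet combinations and the sexes, the log2 fold change of PER vs SUB was 0.94 ± 0.16 for ENSOARG00000006382 (SE; edgeR, adjusted p = 9.15e-06) and 1.07 ± 0.23 for ENSOARG00000017349 (adjusted p = 0.000357). The contrast called 22.2% of the 23294 genes tested. Its SUB libraries include those that chose the genes, so that these tests are not fully separate from the choice. Both genes passed in each setting tried and in all 67 fits with 1 library removed. None of these settings held the share of reads outside exons as a covariate, and that share differed between the tissues. Its median was 74.7% in female and 68.2% in male PER libraries, and 64.9% and 61.0% in those of SUB. A lower share of the cells that express a gene and less RNA of it per cell cannot be told apart in these tissue samples.

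Within the 31 sheep with both libraries, the level in PER was above that in SUB in 26 sheep for ENSOARG00000006382, with a mean difference in log2 cpm of 0.91 ± 0.97 (SD, n = 31). It was also above in 26 of the 31 for ENSOARG00000017349, with 1.06 ± 1.54. All 7 LOW-CONV and all 5 LOW-HCHF sheep had the higher level in PER for both genes. So did all 5 HIGH-CONV and all 4 NORM-CONV sheep for ENSOARG00000017349, and 4 of the 5 and 3 of the 4 for ENSOARG00000006382. Of the 4 NORM-HCHF sheep, 3 had the higher level in PER for ENSOARG00000006382 and 2 for ENSOARG00000017349. Of the 6 HIGH-HCHF sheep, 4 had the higher level in PER for ENSOARG00000006382 and 3 for ENSOARG00000017349, with mean differences of 0.13 ± 1.01 and -0.16 ± 1.15 (SD, n = 6). The mean differences in LOW-CONV sheep were 1.51 ± 0.80 and 2.31 ± 1.28 (SD, n = 7). The choice of the genes in SUB fixed in part how the diet combinations are arranged in these differences, which are therefore given without a test.

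**Figure D3:**
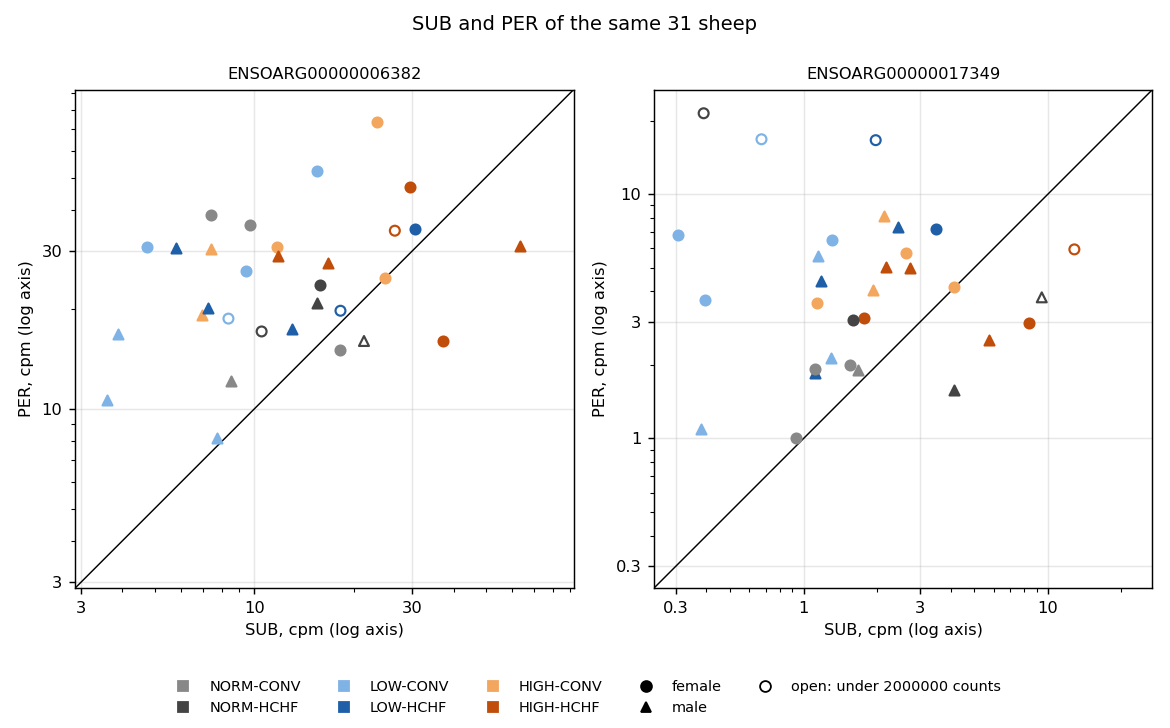
Level in SUB (horizontal) and PER (vertical) of the same sheep, in cpm on log axes, for ENSOARG00000006382 (left) and ENSOARG00000017349 (right); the line marks equal levels, and open symbols mark sheep with fewer than 2000000 counts in either library. For each gene, 26 of the 31 sheep lie above the line.

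A sheep with a high level in SUB did not tend detectably to have one in PER. The SUB levels entered the choice of the genes, so that the tests of this relation are not fully separate from it. For ENSOARG00000006382, Pearson's r between the tissues was 0.33 (permutation test, p = 0.0673, adjusted p = 0.168) and Spearman's rho 0.26 (p = 0.159, adjusted p = 0.319) over 31 sheep, and r was 0.24 without the 2 sheep farthest from the median of the level in SUB. On residuals from the diet combination and sex, r was -0.01 (permutation test, p = 0.952, adjusted p = 0.952). For ENSOARG00000017349, r was -0.05 (permutation test, p = 0.789, adjusted p = 0.876) and rho 0.09 (p = 0.636, adjusted p = 0.794), and r was -0.10 without the 2 farthest sheep. The p-values were adjusted over 10 relations, for r and for rho separately, which include 2 in SUB whose p-values are not given because the choice of the genes bears on them.

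The levels of the 2 genes were correlated in SUB, where Pearson's r of their log2 cpm was 0.68 and Spearman's rho 0.62 (n = 31). Without the 2 libraries farthest from the median of ENSOARG00000006382, r was 0.61, and on residuals from the diet combination and sex it was 0.52. As both were chosen for the same contrast of these libraries, no p-value is given. Among the 16685 other genes tested in SUB, ENSOARG00000017349 held place 447 in the order of r with ENSOARG00000006382, and ENSOARG00000006382 held place 152 in the order of r with ENSOARG00000017349.

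In PER, r between the genes was 0.20 (permutation test, p = 0.239, adjusted p = 0.478) and rho 0.27 (p = 0.117, adjusted p = 0.293) over 36 libraries. Without the 2 farthest libraries r was 0.24, and on residuals it was 0.08 (permutation test, p = 0.640, adjusted p = 0.876). The 3 shallow libraries stood apart, with the highest levels of ENSOARG00000017349 at ordinary levels of ENSOARG00000006382. In the 33 deeper libraries r was 0.45 (permutation test, p = 0.00885, adjusted p = 0.0442), and over all 36 libraries r was 0.39 and passed without TMM scaling (permutation test, adjusted p = 0.0472).

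**Figure D4:**
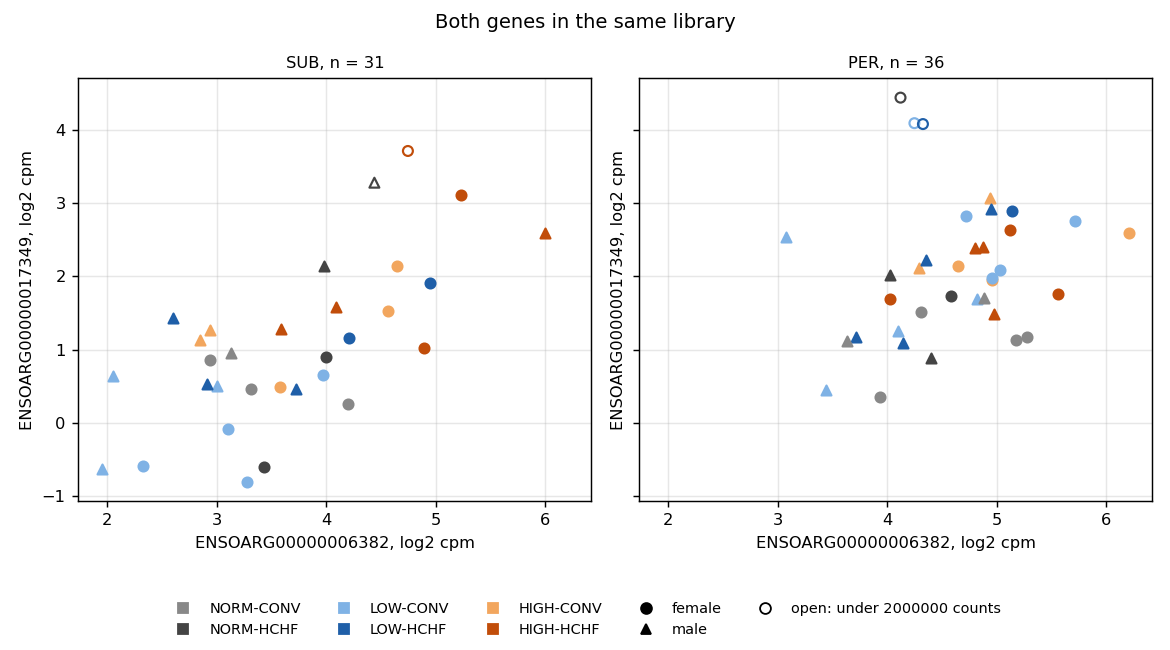
Log2 cpm of ENSOARG00000006382 (horizontal) and ENSOARG00000017349 (vertical) in each SUB (left, n = 31) and PER (right, n = 36) library, coloured by diet combination. Pearson's r is 0.68 in SUB and 0.20 in PER, where the 3 open circles at the top are the libraries with fewer than 2000000 counts.

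The median share of reads outside exons was higher in the HIGH-HCHF than in the LOW-CONV libraries of SUB, the groups that chose the genes. Its relation to the levels of the genes there is therefore given as a description, with no p-value. For ENSOARG00000006382, r with that share was 0.52 and rho 0.63 (n = 31), and r was 0.49 without the 2 libraries of the most extreme share, which were the shallow ones. For ENSOARG00000017349, r was 0.62 and rho 0.55, and r was 0.37 without these 2 libraries. An r at least as high was found for 25.4% and 19.4% of the genes tested in SUB. In PER, ENSOARG00000017349 had an r of 0.71 (permutation test, p = 1e-05, the smallest that the resamples can give, adjusted p = 0.0001) and rho of 0.49 (p = 0.00269, adjusted p = 0.00897), and r was 0.39 in the deeper libraries (permutation test, adjusted p = 0.0624). Over all 36 PER libraries, 31.6% of the genes tested had an r at least as high as 0.71, so that this relation was not particular to the gene. ENSOARG00000006382 had an r of 0.05 in PER (permutation test, p = 0.763, adjusted p = 0.876). The part of this share in the differences between diets and sexes was not tested beyond the covariate. Its part in the difference between the tissues was not tested, as no fit of both tissues held the covariate.

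**Figure D5:**
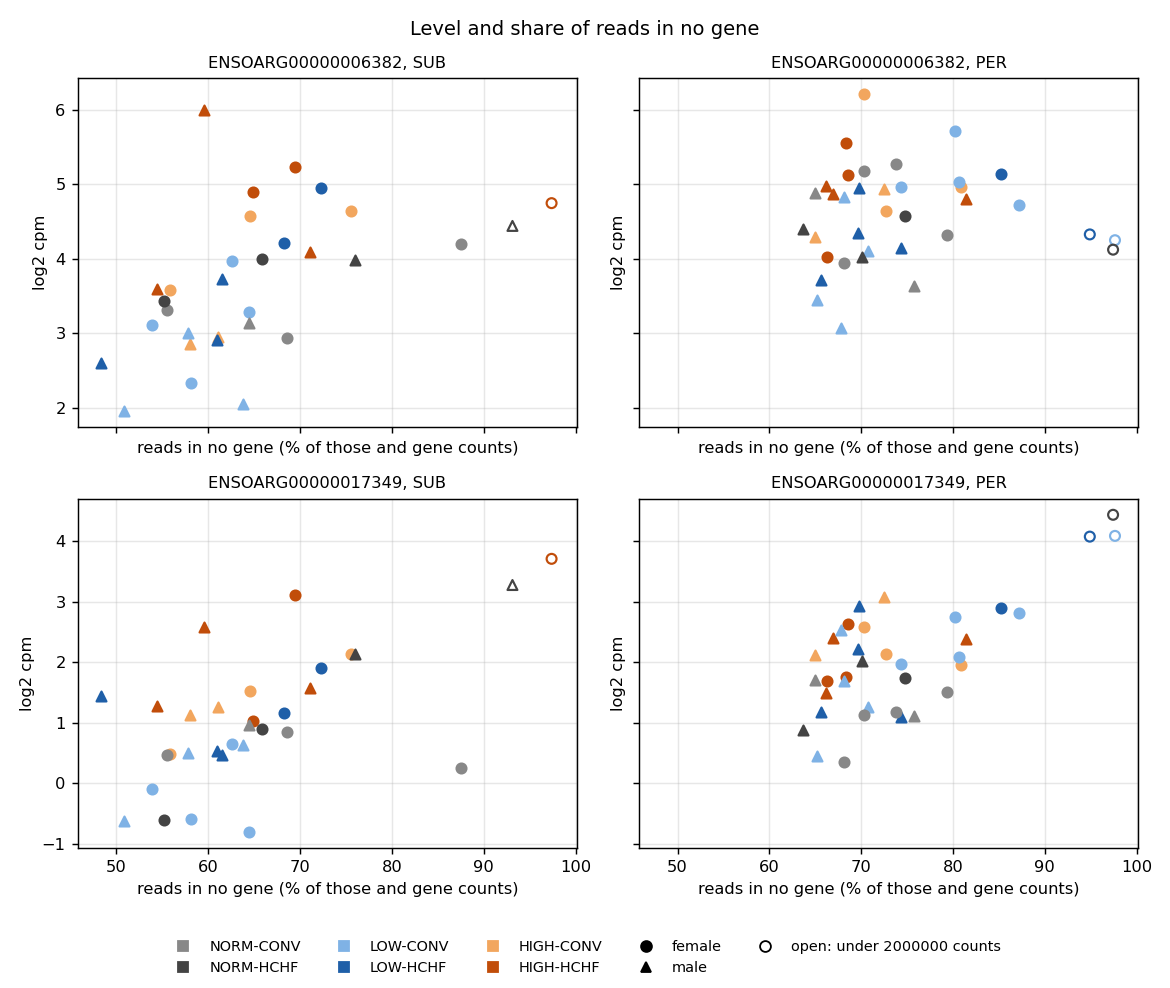
Share of reads outside exons (labelled as reads in no gene), as percent of those reads and the counts in genes (horizontal), and log2 cpm (vertical) of ENSOARG00000006382 (top) and ENSOARG00000017349 (bottom) in SUB (left) and PER (right). Pearson's r is 0.52 and 0.62 in SUB and 0.05 and 0.71 in PER, and the open symbols, at shares of 93.1% to 97.6%, are the shallow libraries.

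The genes most like ENSOARG00000006382 over the 31 SUB libraries were ENSOARG00000015125, with an r of 0.87, and ENSOARG00000016407, with 0.85. Over the 36 PER libraries their r with it was -0.12 and 0.19, so that the likeness was not seen there. The genes most like ENSOARG00000017349 in SUB were ENSOARG00000005960, with an r of 0.79, and ENSOARG00000013545, with 0.78, and in PER their r with it was 0.75 and 0.48. All 4 had an r between 0.63 and 0.71 with the share of reads outside exons in SUB. These correlations were the highest of 16685 and are given without a test.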

How the data were processed

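RNA was sequenced from 36 PER and 31 SUB samples of 36 sheep. Per the methods and the processing notes of the submitters, the authors trimmed read pairs with Trimmomatic 0.39, removed ribosomal sequences with BWA, aligned the others to Oar_v3.1 with STAR 2.7.3a and counted them in exons with HTSeq 0.11.8. The deposited values are whole-number counts per gene, without normalization, followed by 5 classes of reads left uncounted. These classes were kept out of library sizes and tests, and made up 62.4% to 98.2% of the entries of a library. The library kit kept the strand, and whether the counting used it is not given in the sources used here, so that reads of overlapping antisense genes may be included.

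Genes that reached 1 cpm in 4 or more libraries were fitted per tissue with edgeR 4.0.16 in R 4.3.3 (quasi-likelihood test, TMM, Benjamini-Hochberg threshold 0.05), with sex, postnatal and prenatal nutrition and their pairwise interactions, and contrasts averaged over the other factors. PER and SUB were compared in a fit of all 67 libraries with tissue by diet combination and sex by tissue. Exact and 100000-resample permutation tests were two-sided. The sheep number in the sample titles paired the tissues, and the residuals of the same sheep had an r of -0.01 for ENSOARG00000006382 and -0.10 for ENSOARG00000017349. The fits were checked on simulated counts.

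The members and the lists of comparisons were chosen with earlier results of these data known. Genes were named by a rule, namely the 2 members and, for each, the 2 genes with the highest r in SUB, and ENSOARG00000019388 was added as the gene just outside the threshold. Alternatives were DESeq2 1.42.0, its size factors in edgeR, limma 3.58.1 (voom with quality weights per sample), other filters, an additive model and the share of reads outside exons as a covariate. Others were libraries with at least 2000000 counts, cpm without TMM, a prior count of 0.5, the sheep as a block and each library left out. The dispersion from estimateDisp and the 31 sheep without the block were chosen after seeing the data.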

Additional observations from a re-analysis of the deposited data

How the results depend on the processing

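Of 327 values recomputed under other settings for 55 results, 293 kept their direction and their side of the threshold, or moved by less than the spread between sheep. The contrast that chose the genes, HIGH-HCHF vs LOW-CONV in SUB, called 948 genes with DESeq2, 6 with the additive model and 4 with limma-voom, against 2. It called 1 with the size factors of DESeq2, with 1 cpm required in every library or with the dispersion from estimateDisp, and 0 with the share of reads outside exons as a covariate. With that covariate ENSOARG00000006382 no longer passed (2.02 on the log2 scale). ENSOARG00000017349 did not pass with the covariate (2.11), the size factors of DESeq2 (2.63), estimateDisp (2.71), limma-voom (2.29) or the deeper libraries (2.45), and the filter at 1 cpm in every library removed it from both tissues. Without 1 sheep, 0 to 7 genes were called, and the log2 fold changes ranged from 1.63 to 2.49 for ENSOARG00000006382 and from 2.33 to 2.87 for ENSOARG00000017349. The call of ENSOARG00000006382 was lost without HIGH-HCHF replicate 2, 4 or 6, NORM-HCHF replicate 4 or LOW-CONV replicate 1, 2, 3, 4, 6 or 7. That of ENSOARG00000017349 was lost without any of the 7 LOW-CONV sheep, HIGH-HCHF replicate 2, 4, 5 or 6, NORM-HCHF replicate 2 or 4, HIGH-CONV replicate 1 or 5, NORM-CONV replicate 4 or LOW-HCHF replicate 5. The causes were not tested.

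In PER, ENSOARG00000006382 passed between the sexes with DESeq2 (-0.59), its size factors (-0.60), 1 cpm in every library (-0.66), the additive model (-0.50), limma-voom (-0.58) and the deeper libraries (-0.58). It also passed without LOW-CONV replicate 1, 7 or 9, HIGH-CONV replicate 4, NORM-CONV replicate 4 or 5, HIGH-HCHF replicate 5 or 6 or LOW-HCHF replicate 5. Over all 36 fits that left out 1 sheep, passing or not, the range was -0.58 to -0.36. In SUB the range was -0.78 to -0.45. ENSOARG00000017349 passed between the sexes in PER with DESeq2 (-0.81) and turned to 0.14 with the covariate. Its LOW vs HIGH value in PER turned to -0.27 with the covariate and -0.0352 with limma-voom. Its HIGH-HCHF vs LOW-CONV value in PER turned to 0.21 with the additive model, 0.34 with the covariate and 0.047 in the deeper libraries, and ranged from -0.19 to 0.19 without 1 sheep. DESeq2 gave no adjusted p for its HCHF vs CONV value in PER. HCHF vs CONV of ENSOARG00000006382 in PER ranged from -0.19 to 0.00968, where HIGH-CONV replicate 2 decided the sign.

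Among the 4 groups tested exactly, the difference of ENSOARG00000017349 in the deeper libraries turned to 0.50 for HIGH-CONV vs NORM-HCHF (-0.79 to 0.50 without 1 sheep) and to 0.29 for LOW-HCHF vs NORM-HCHF (-1.0 to 0.29). For ENSOARG00000006382 it ranged from -0.23 to 0.35 for HIGH-CONV vs LOW-HCHF and from -0.0338 to 0.55 for LOW-HCHF vs NORM-CONV. In the deeper libraries, r between the tissues for ENSOARG00000017349 was 0.15 (residuals 0.14), and without 1 library it ranged from -0.15 to 0.0782 (residuals -0.17 to 0.21). The r of residuals for ENSOARG00000006382 ranged from -0.15 to 0.0608. Without the shallow libraries, r of ENSOARG00000017349 with the share of reads outside exons was 0.37 in SUB, and in PER it was 0.39 and did not pass. The r between the genes in PER passed at 0.45 in the deeper libraries and at 0.39 without TMM.

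With the sheep as a replicate block, PER vs SUB was 0.90 for ENSOARG00000006382 and 1.03 for ENSOARG00000017349, and both still passed. The difference between the sexes in PER minus SUB was 0.16 and -0.49 with the block and did not pass (edgeR, adjusted p = 0.998 for both). The block changed no call, and the diet and sex contrasts lie within 1 tissue. Depth limits ENSOARG00000017349, of which a SUB library held as few as 2 counts.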
